A study of Mus musculus with 20 samples.

Results

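The aquaporins *Aqp1*, *Aqp3*, *Aqp4*, *Aqp5* and *Aqp11*, 5 water channel genes, were selected by gene symbol from the 24411 genes of an RNA-seq table of mouse RPE-choroid, the outer eyecup made of the retinal pigment epithelium (RPE) and the vascular choroid. All 5 were among the 18807 genes kept by a filter of at least 5 reads over all libraries. The study asked how loss of *Stra6*, the retinol transporter of the RPE, and a diet without vitamin A change the eye. It compared 4 groups of 5 libraries from C57BL/6 mice: WT and *Stra6*-/- mice on a vitamin A sufficient diet (VAS, 4 IU/g) or a vitamin A deficient diet (VAD, 0 IU/g). All mice were kept with dams on standard chow until weaning at about 28 days and then held on their diet for 12 weeks. By the study's methods each library held both eyecups of 1 mouse; litters and sexes were not given. The labels name no tissue-specific driver for the deletion, so the groups do not separate effects of its loss in the RPE from effects elsewhere.

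Aquaporins are membrane pores that let water follow osmotic gradients, and they are most abundant in epithelia and glia that move fluid. *Aqp1*, *Aqp4* and *Aqp5* encode channels selective for water, *Aqp3* encodes an aquaglyceroporin that also passes glycerol, and *Aqp11* encodes a distant relative that resides mainly in intracellular membranes. In the eye AQP1 is known from corneal endothelium, keratocytes and vessels, AQP4 from Müller glia and astrocytes, AQP5 from corneal epithelium and lacrimal gland, and AQP3 from conjunctival and other stratified epithelia, while the RPE carries water from the retina to the choroid mainly behind ion and lactate transport.

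The start regions of the members whose diet difference was not the same under both genotype labels (below) are printed first. *Aqp3* and *Aqp5* were lower together, and *Aqp11* higher, in the libraries labelled VAD *Stra6*-/-. They are RefSeq promoter windows of GRCm38.p6, from 250 bases before to 50 bases after the annotated start, and 4 of the 5 members had an entry. Bases in capitals are matches, on either strand, to 4 short motifs that were searched: TATAAA (the TATA box), GGGCGG (the GC box), CACGTG (an E-box) and AGGTCA (the core motif of nuclear receptor binding sites, retinoic acid receptors included). The *Aqp3* window is chr4:41098134-41098433 on the minus strand, the *Aqp5* window chr15:99590778-99591077 on the plus strand and the *Aqp11* window chr7:97738198-97738497 on the minus strand.
Aqp3: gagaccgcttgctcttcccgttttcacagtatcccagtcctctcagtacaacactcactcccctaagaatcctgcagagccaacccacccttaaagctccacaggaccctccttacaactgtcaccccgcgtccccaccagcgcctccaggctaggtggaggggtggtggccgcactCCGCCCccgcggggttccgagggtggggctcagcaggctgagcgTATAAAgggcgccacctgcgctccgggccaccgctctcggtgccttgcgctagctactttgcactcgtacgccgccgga
Aqp5: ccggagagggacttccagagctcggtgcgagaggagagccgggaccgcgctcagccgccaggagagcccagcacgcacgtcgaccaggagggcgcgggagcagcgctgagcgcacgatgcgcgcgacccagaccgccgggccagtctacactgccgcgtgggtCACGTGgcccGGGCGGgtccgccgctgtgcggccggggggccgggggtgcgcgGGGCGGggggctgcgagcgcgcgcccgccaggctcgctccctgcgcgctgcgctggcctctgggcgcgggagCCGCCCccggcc
Aqp11: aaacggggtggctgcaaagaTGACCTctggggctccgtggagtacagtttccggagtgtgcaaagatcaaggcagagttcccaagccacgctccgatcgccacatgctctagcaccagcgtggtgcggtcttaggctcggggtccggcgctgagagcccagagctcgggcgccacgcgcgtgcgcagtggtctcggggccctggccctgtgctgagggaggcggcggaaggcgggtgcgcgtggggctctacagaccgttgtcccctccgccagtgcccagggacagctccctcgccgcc

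The *Aqp3* window held 1 TATAAA and 1 GGGCGG, the *Aqp5* window 3 GGGCGG and 1 CACGTG, and the *Aqp11* window 1 AGGTCA. The *Aqp1* window, chr6:55336049-55336348 on the plus strand, held 1 GGGCGG. None of these matches overlapped another. Of the 32851 RefSeq windows of this length, 35.7% held GGGCGG, 16.3% AGGTCA, 13.6% TATAAA and 7.15% CACGTG. GC content was 64.0% in the *Aqp3* window, 79.7% in that of *Aqp5*, 68.0% in that of *Aqp11* and 62.7% in that of *Aqp1*, against a median of 52.7% over all windows. A match describes letters only, and nothing was measured at these sites here. The GENCODE model of *Aqp5* begins at 99590782, so most of the window printed for it lies inside that model. That of *Aqp1* begins at 55336432, after the end of its window, which therefore holds no base of the model.

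Genes on GRCm38 (GENCODE vM21) were placed as follows. *Aqp1* lies on chromosome 6 from 55336432 to 55348555, *Aqp3* on chromosome 4 from 41092722 to 41098183, and *Aqp4* on chromosome 18 from 15389496 to 15410982. *Aqp5* lies on chromosome 15 from 99590782 to 99594829 and *Aqp11* on chromosome 7 from 97724006 to 97738289. No exon of another annotated gene overlapped the exons of these 5 genes. *Aqp5* lies between *Aqp2* (99579055 to 99584547) and *Aqp6* (99601400 to 99605477) on chromosome 15.

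Values below are normalized values, the gene count of a library divided by that library's DESeq2 size factor, and recovered depth was 13331903 to 21878614 reads per library. All 8 RPE markers examined, *Rpe65* among them, were detected in every library, but so were 8 markers of corneal and other surface epithelium. The summed level of the surface epithelium markers (*Krt12*, *Krt5*, *Krt14*, *Krt15*, *Aldh3a1*, *Slurp1*, *Lypd2* and *Col17a1*) was 618088 to 751275 in the VAS WT libraries, 884954 to 919695 with *Stra6*-/- on the same diet, 402924 to 1173490 in VAD WT, and only 23711.7 to 31189.8 across the 5 libraries labelled VAD *Stra6*-/-. For the RPE markers the sums were 101396 to 117405, 107333 to 112836, 27571.5 to 52014.6 and 464344 to 505088 in the same order. *Stra6*, the deleted gene, did not follow the genotype labels by level. It averaged 2591 in VAS WT, 629 in VAS *Stra6*-/- and 986 in VAD WT, but 2163 in the libraries labelled VAD *Stra6*-/-. All 5 of these lay above every VAD WT library (log2 difference 1.23, adjusted p = 3.92e-06, limma). *Stra6* is a gene of the RPE, and the RPE sums were also highest in those libraries. They averaged 107675 in VAS WT, 110427 in VAS *Stra6*-/-, 37658 in VAD WT and 485612 in the libraries labelled VAD *Stra6*-/-. Relative to these mean sums, mean *Stra6* was lower in both groups labelled *Stra6*-/- than in both WT groups, a difference that was not tested. The level of *Stra6* alone therefore does not test the label. VAD WT replicates 2 and 4 stood apart from replicates 1, 3 and 5. The female transcript *Xist* was at 10912 and 11767 in that pair and at most 234 in the other three, and their surface epithelium sums were 407957 and 402924 against 1142620 or more. *Xist* was at most 38.4 in VAS WT and at least 15320 in VAS *Stra6*-/-. Sex and genotype therefore cannot be told apart on the VAS diet. The libraries labelled VAD *Stra6*-/- held both *Xist* (3570 or more) and the Y-linked *Ddx3y* (741 or more). Such a mixture is not what 1 mouse would give, so n = 5 may not stand for 5 separate mice there. VAD WT replicates 2 and 4 also held *Ddx3y*, at 75.2 and 80.5, against 1041 or more in replicates 1, 3 and 5. Sex-linked transcripts thus differed between the diets under both genotype labels too.

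*Aqp5* and *Aqp3* were the most abundant water channel transcripts in VAS WT, VAD WT and VAS *Stra6*-/-. Both were far lower in the libraries labelled VAD *Stra6*-/-, where *Aqp1* was highest and they came next. Levels were compared between genes per kb of exon, as group means of normalized value per kb. In VAS WT *Aqp5* stood at 10320 ± 1171 (SD, n = 5) and *Aqp3* at 9687 ± 687 per kb, ahead of *Aqp1* at 2131 ± 52.3. *Aqp4* followed at 79.8 ± 12.6 per kb and *Aqp11* at 6.997 ± 1.92 per kb. The latter gene had as few as 23 reads in a library of the series. In the libraries labelled VAD *Stra6*-/- the order became *Aqp1* at 2455 ± 89.9, *Aqp3* at 430 ± 90.5, *Aqp5* at 210 ± 50.5, *Aqp4* at 41.2 ± 5.68 and *Aqp11* at 14.3 ± 4.39 per kb.

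**Figure D1:**
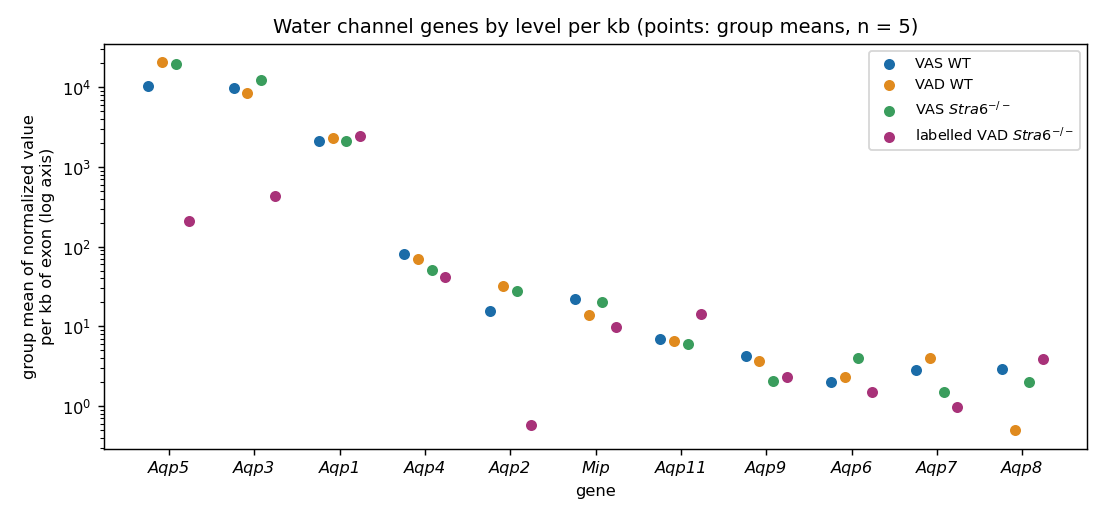
Group mean of normalized value per kb of exon (log axis) for 11 mouse water channel genes, 4 groups of 5 libraries; *Aqp12*, at 0 in all 20 libraries, is not drawn. *Aqp5* and *Aqp3* lead in 3 groups, with *Aqp5* at 10320 per kb in VAS WT, and *Aqp1* leads in the libraries labelled VAD *Stra6*-/- at 2455 per kb.

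*Aqp5*, the water channel of corneal and glandular epithelium, showed the widest range of the members. In VAS WT its normalized values in replicates 1 to 5 were 25104, 26514, 25168, 32164 and 25164. In VAS *Stra6*-/- they were 51905, 50102, 48789, 53802 and 53971, all above VAS WT. VAD WT split into 71832, 77441 and 75512 in replicates 1, 3 and 5 and 21565 and 21332 in replicates 2 and 4, so that this group held both the highest values of all WT libraries and the lowest. The libraries labelled VAD *Stra6*-/- had 556, 563, 724, 355 and 528, below every library of the other 3 groups. By group mean the order was VAD WT (53536 ± 29361), VAS *Stra6*-/- (51714 ± 2272), VAS WT (26823 ± 3044) and the libraries labelled VAD *Stra6*-/- (545 ± 131; SD, n = 5 each), and the VAD WT range spanned those of VAS WT and VAS *Stra6*-/-.

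*Aqp3*, the glycerol-permeable channel of stratified epithelia, varied less between the first 3 groups. Its normalized values in VAS WT were 18211, 18149, 17678, 18931 and 15618. VAS *Stra6*-/- had 22145, 22511, 22209, 23398 and 22819, again all above VAS WT. In VAD WT replicates 1, 3 and 5 had 19227, 18895 and 19576, close to VAS WT, while replicates 2 and 4 had 9527 and 9990. The libraries labelled VAD *Stra6*-/- had 775, 641, 754, 696 and 1068, with no overlap with any other group. Means ran from 22617 ± 513 in VAS *Stra6*-/- through 17717 ± 1256 in VAS WT and 15443 ± 5197 in VAD WT to 787 ± 166 (SD, n = 5 each), and neither VAS *Stra6*-/- and VAS WT nor VAS WT and VAD WT differed at an adjusted p under 0.05.

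**Figure D2:**
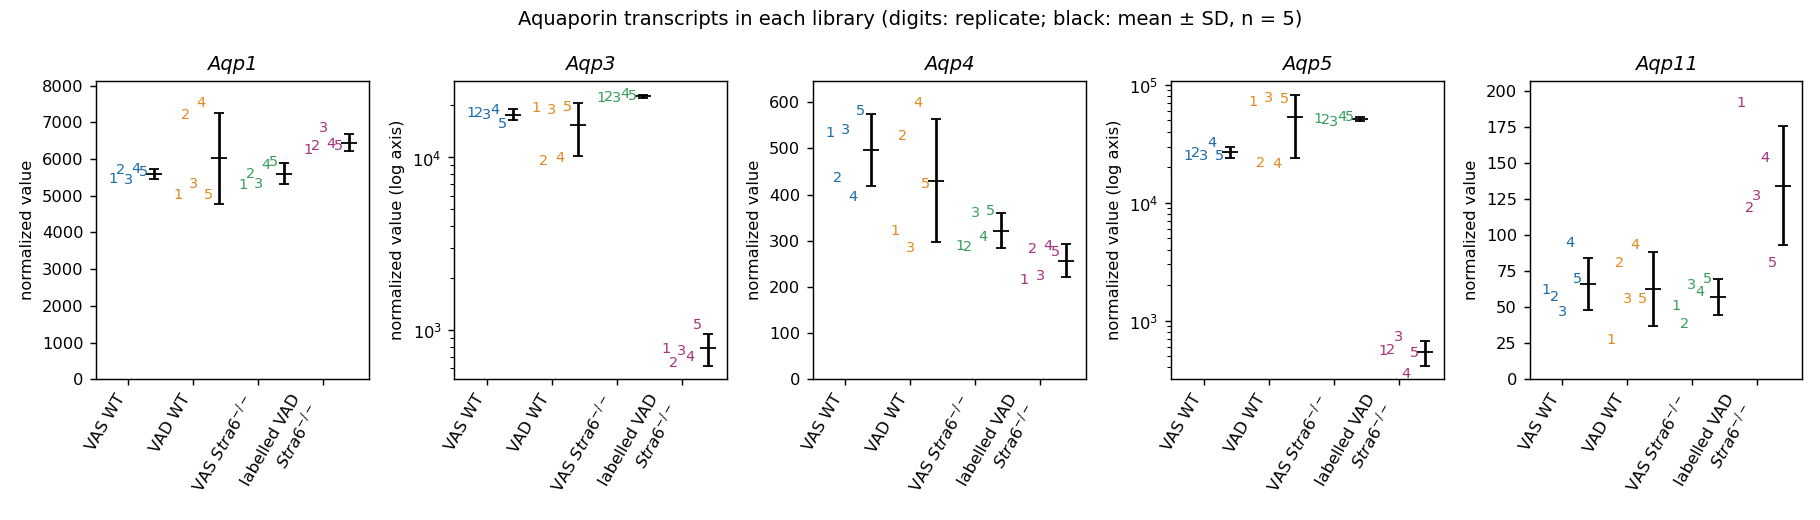
Normalized value of each aquaporin in each of the 20 libraries by group (digits are replicate numbers; black bars are mean ± SD, n = 5; log axis for *Aqp3* and *Aqp5*, linear from 0 for the others). *Aqp3* and *Aqp5* lie far lower in the libraries labelled VAD *Stra6*-/- (means 787 and 545), and VAD WT replicates 2 and 4 are separate from replicates 1, 3 and 5 for all 5 genes.

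*Aqp1*, the water channel of endothelia and red cells, was the steadiest member. VAS WT had 5462, 5709, 5439, 5724 and 5657, and VAS *Stra6*-/- had 5297, 5607, 5319, 5834 and 5929. These ranges overlapped almost fully. VAD WT had 5029, 5308 and 5029 in replicates 1, 3 and 5 and 7190 and 7524 in replicates 2 and 4, the reverse of the split seen for *Aqp3* and *Aqp5*. Those labelled VAD *Stra6*-/- had 6239, 6366, 6855, 6422 and 6368, above all VAS *Stra6*-/- libraries and inside the VAD WT range. The order of means was 6450 ± 236 in the latter group, 6016 ± 1235 in VAD WT, 5598 ± 137 in VAS WT and 5597 ± 289 in VAS *Stra6*-/- (SD, n = 5 each), and no neighbours in this order differed at an adjusted p under 0.05.

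*Aqp4*, the glial water channel that also occurs in fast skeletal muscle, was lower in the VAS *Stra6*-/- libraries than in VAS WT. VAS WT had 534, 436, 541, 394 and 581, and VAS *Stra6*-/- had 288, 288, 360, 307 and 365. Every VAS WT library exceeded every VAS *Stra6*-/- library. VAD WT ranged widely, with 321, 527, 284, 598 and 422, and replicates 2 and 4 were its highest. In the libraries labelled VAD *Stra6*-/- it had 215, 283, 223, 290 and 275. Means fell from 497 ± 78.5 in VAS WT through 431 ± 133 in VAD WT and 322 ± 38.2 in VAS *Stra6*-/- to 257 ± 35.4 (SD, n = 5 each), each range overlapping that of its neighbour.

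*Aqp11*, the intracellular channel, was highest in the libraries labelled VAD *Stra6*-/-. VAS WT had 61.8, 56.7, 46.7, 94.6 and 69.6, and VAS *Stra6*-/- had 50.8, 38.4, 65.1, 60.8 and 69.3. VAD WT had 27.1, 80.3, 55.3, 93.3 and 55.9, with replicates 2 and 4 the highest, and overlapped both. The libraries labelled VAD *Stra6*-/- had 191, 119, 127, 154 and 80.3, all above VAS *Stra6*-/- but overlapping VAS WT and VAD WT through replicate 5. Means were 134 ± 41.3 there and 65.9 ± 18.1, 62.4 ± 25.6 and 56.9 ± 12.4 in VAS WT, VAD WT and VAS *Stra6*-/- (SD, n = 5 each).

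On the VAS diet *Aqp5* was higher and *Aqp4* lower in *Stra6*-/- than in WT libraries. Sex and genotype cannot be told apart in this comparison, as given above. The tests used limma on the log2(value + 1) scale, and a gene was called at an adjusted p under 0.05 over all 18807 genes; fold changes below are on that scale. With the further limit of a log2 fold change beyond 2, 0 members were called in VAS *Stra6*-/- and 0 in VAD WT against VAS WT (1.1% and 0.409% of all genes), 2 against VAS *Stra6*-/- and 2 against VAD WT in the libraries labelled VAD *Stra6*-/- (9.08% and 10.4%) and 2 in the interaction (10.4%), each time *Aqp3* and *Aqp5*. *Aqp5* was 1.93 times as high by group mean in VAS *Stra6*-/- as in VAS WT (log2 fold change 0.95 ± 0.30, SE; adjusted p = 0.0233), and *Aqp4* was lower (log2 fold change -0.62 ± 0.17, adjusted p = 0.0109). These were 2 of the 5 members, where 26.6% of all genes were called. *Aqp3* (0.35 ± 0.18, adjusted p = 0.156), *Aqp11* (-0.20 ± 0.31, adjusted p = 0.693) and *Aqp1* (-0.00 ± 0.10, adjusted p = 1) were not called, with 95% intervals of -0.02 to 0.73, -0.84 to 0.44 and -0.20 to 0.20. The ranges of *Aqp3*, *Aqp4* and *Aqp5* did not overlap, as for 32.5% of all genes. With only these 2 groups in the fit, so that the spread of VAD WT did not enter it, *Aqp3* was also called (adjusted p = 0.000166), and without VAS WT replicate 5 *Aqp5* was not (adjusted p = 0.0508).

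Markers of other cell types moved in this comparison too. The surface epithelium sum was higher in every VAS *Stra6*-/- library than in any of VAS WT, although 2 of its 8 markers were called higher and 1 lower. Per 1000 units of that sum *Aqp5* had a median of 38.4 in VAS WT and 58.1 in VAS *Stra6*-/- with no overlap (38.3 to 42.8 against 55.1 to 59.2), and *Aqp3* 26.3 and 25.1. Beside *Aqp4*, the sum of 6 Müller glia and astrocyte markers ran from 36066 to 38131 in VAS WT and from 52917 to 54740 in VAS *Stra6*-/-, with 3 markers called higher (*Glul*, *Dkk3* and *Aldh1l1*) and 2 lower (*Slc1a3* and *Kcnj10*) and a median log2 fold change of -0.01 over the list. All 8 skeletal muscle markers were called higher, with sums of 11868 to 14328 and 30654 to 34434. In bulk samples fewer cells of a type and less RNA per cell cannot be told apart, and the part of these cell types in the results was not tested.

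Between the diets in WT mice *Aqp5* was called by edgeR and DESeq2 but not by limma, and no other member was called by any of them with all 5 libraries. By limma 0 of the 5 members were called in VAD WT against VAS WT, where 8.78% of all genes were, and 1 had an unadjusted p under 0.05; edgeR and DESeq2 on recovered reads each called 1. That member was *Aqp5*, with a log2 fold change of 0.77 ± 0.30 (95% interval 0.14 to 1.40, adjusted p = 0.131 by limma), adjusted p = 0.0387 by edgeR and 0.00555 by DESeq2. *Aqp3* (-0.27 ± 0.18, adjusted p = 0.413), *Aqp4* (-0.25 ± 0.17, adjusted p = 0.445), *Aqp11* (-0.15 ± 0.31, adjusted p = 0.830) and *Aqp1* (0.08 ± 0.10, adjusted p = 0.687) were not called by any of these tools. The ranges of all 5 members overlapped, while 6.34% of all genes had none.

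These values rested on the VAD WT pair that stood apart. That pair was picked out by a split seen in these same data, and leaving it out narrows the spread of the group. The p-values from fits without the pair, here and below, do not allow for that choice. With VAD WT replicates 1, 3 and 5 alone, limma called 3 of the 5 members, where 37.9% of all genes were called. *Aqp5* was then higher than in VAS WT by 1.49 on the log2 scale (adjusted p = 3.06e-08), *Aqp4* was lower (-0.54, adjusted p = 0.00753) and *Aqp1* was lower (-0.13, adjusted p = 0.0271). For *Aqp3* the difference turned from -0.27 to 0.12 (adjusted p = 0.388). Markers of several cell types split the same way. In replicates 2 and 4 the rod marker sum was 264093 and 266840, against at most 101774 in the other three, and the erythrocyte sum was 44924 and 45441. Over the 5 VAD WT libraries the erythrocyte markers *Slc4a1* and *Hbb-bs* were at 0 in 2 and 1 of them, and the gland markers *Bhlha15* and *Lpo* in 2 and 1. The endothelial sum was 14263 and 14649, against 5556 to 5967. *Aqp1*, found in red cells and vessels, *Aqp4* and *Aqp11* were highest in the same pair, and the part of these cell types was not tested.

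In the libraries labelled VAD *Stra6*-/- *Aqp3* and *Aqp5* were far lower than in either comparison group, and *Aqp11* was higher. Against VAS *Stra6*-/- 3 of the 5 members were called, where 53.2% of all genes were. The *Aqp5* mean was 94.9 times as high in VAS *Stra6*-/- (log2 fold change -6.60 ± 0.30, adjusted p = 8.26e-14) and the *Aqp3* mean 28.7 times (-4.87 ± 0.18, adjusted p = 1.99e-15). *Aqp11* was 2.36 times as high in the libraries labelled VAD *Stra6*-/- (1.197 ± 0.31, adjusted p = 0.00234). *Aqp1* (0.21 ± 0.10, adjusted p = 0.0798) and *Aqp4* (-0.33 ± 0.17, adjusted p = 0.124) were not called, but both were with only these 2 groups in the fit (adjusted p = 0.00117 and 0.0302). Ranges of 4 members, all but *Aqp4*, did not overlap, as for 51.3% of genes.

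Against VAD WT, the group on the same diet, 4 of the 5 members were called, where 55.9% of all genes were. *Aqp5* averaged 98.2 times as high in VAD WT (log2 fold change -6.41 ± 0.30, adjusted p = 1.70e-13) and *Aqp3* 19.6 times (-4.24 ± 0.18, adjusted p = 2.63e-14). The libraries labelled VAD *Stra6*-/- had less *Aqp4* (-0.70 ± 0.17, adjusted p = 0.00177) and more *Aqp11* (1.15 ± 0.31, adjusted p = 0.00307). *Aqp1* was not called (0.12 ± 0.10, adjusted p = 0.295, 95% interval -0.08 to 0.32). Only *Aqp3* and *Aqp5* had ranges that did not overlap, as 37.4% of genes did. With VAD WT replicates 1, 3 and 5 alone all 5 members were called, where 63.1% of genes were, *Aqp1* with a fold change of 0.33 (adjusted p = 1.16e-06) and *Aqp5* with -7.14 (adjusted p = 1.93e-20).

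The difference between the diets was not the same under both genotype labels for 3 of the 5 members, where 44.2% of all genes were called. The interaction tested was the diet difference in *Stra6*-/- minus that in WT. It was -7.37 ± 0.43 for *Aqp5* (adjusted p = 1.08e-11), -4.60 ± 0.25 for *Aqp3* (adjusted p = 4.53e-12) and 1.35 ± 0.43 for *Aqp11* (adjusted p = 0.0152). The interactions of *Aqp1* (0.12 ± 0.14, adjusted p = 0.492) and *Aqp4* (-0.08 ± 0.25, adjusted p = 0.831) were not called. With VAD WT replicates 1, 3 and 5 alone, *Aqp1* was called as well (0.33, adjusted p = 5.29e-05), which made 4 members where 54.7% of genes were called. All of these values use the libraries labelled VAD *Stra6*-/-, where *Stra6* and the RPE sums were both above VAD WT. Sex-linked transcripts also differed between the diets under both genotype labels, and their part was not tested.

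**Figure D3:**
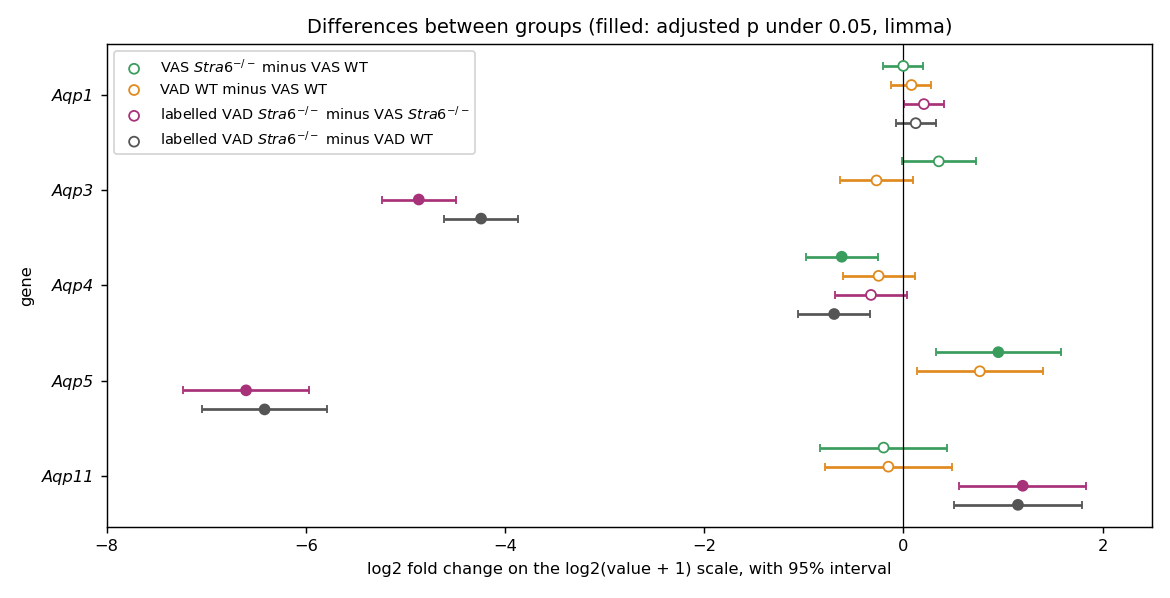
Log2 fold change on the log2(value + 1) scale with its 95% interval for each aquaporin in 4 comparisons, n = 5 libraries a group; filled points have an adjusted p under 0.05 (limma). *Aqp5* (-6.60 and -6.41) and *Aqp3* (-4.87 and -4.24) lie far to the left in both comparisons of the libraries labelled VAD *Stra6*-/-.

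The surface epithelium markers moved with *Aqp3* and *Aqp5* in these libraries. All 8 were called lower against VAS *Stra6*-/- and all 8 against VAD WT, and *Krt12*, the keratin of corneal epithelium, averaged 2851 ± 512 against 277635 ± 4370 and 279050 ± 150542. None of the 8 was at 0 in any library. Per 1000 units of the marker sum *Aqp3* had a median of 28.7 in the libraries labelled VAD *Stra6*-/-, against 25.1 in VAS *Stra6*-/-, 26.3 in VAS WT and 16.9 in VAD WT. On the same scale *Aqp5* had 20.6, against 58.1, 38.4 and 61.2. The sum is weighted to its most abundant markers, and single markers differed. Against VAS *Stra6*-/- the log2 fold change of *Aqp5* (-6.60) was close to those of *Krt12* (-6.62), *Slurp1* (-6.78), *Lypd2* (-6.41) and *Col17a1* (-6.88), while that of *Aqp3* (-4.87) was nearer to those of *Aldh3a1* (-5.03) and *Krt5* (-5.16); *Krt15* (-3.75) and *Krt14* (-3.53) were the least changed. These differences between genes were not tested. The RPE markers moved the other way, with 7 of 8 called higher against each group, and 5 of the 6 markers of corneal stroma and endothelium were called higher and 1 lower against VAS *Stra6*-/-. Per 1000 units of the RPE sum *Aqp11* had a median of 0.262 in these libraries and 0.546 in VAS *Stra6*-/-, and *Aqp1* 13.4 and 50.8. Erythrocyte sums were 21917 to 31285 in these libraries and 13040 to 14681 in VAS *Stra6*-/-, though limma called 0 of the 6 markers (1 at an unadjusted p under 0.05). Endothelial sums were 11145 to 11749 and 7456 to 8073, with 4 of 7 endothelial markers called higher. Beside *Aqp4*, 3 of 5 rod markers were called lower, 3 of 8 skeletal muscle markers lower and 2 of 6 Müller glia markers higher against VAS *Stra6*-/-, and 4 of 5 rod markers lower, 5 of 6 Müller glia markers higher and all 8 skeletal muscle markers higher against VAD WT. The sum of 4 gland acinar markers (658 to 944) overlapped that of VAS *Stra6*-/- (719 to 819), and the lens sum was higher (1866 to 2328 against 910 to 1099). The part of any cell type in these results was not tested.

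**Figure D4:**
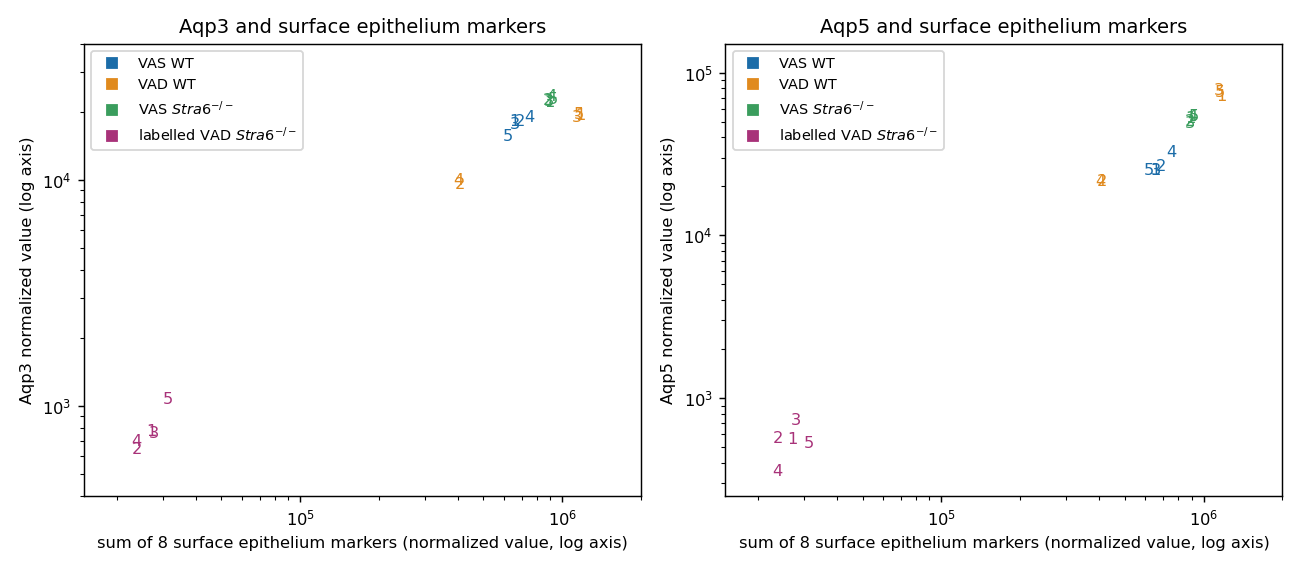
*Aqp3* (left) and *Aqp5* (right) normalized value against the summed normalized value of 8 surface epithelium markers in each library, both axes log; digits are replicate numbers and colours are groups. The libraries labelled VAD *Stra6*-/- lie lowest on both axes (sums of 23711.7 to 31189.8), and VAD WT replicates 2 and 4 lie apart from replicates 1, 3 and 5.

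The balance of *Aqp5* to *Aqp3* within a library, given as a description, was lowest in the libraries labelled VAD *Stra6*-/- and differed among the other groups. The ratio of normalized values, uncorrected for length, was 1.38 to 1.70 in VAS WT and 2.20 to 2.37 in VAS *Stra6*-/-. VAD WT had 3.74, 4.10 and 3.86 in replicates 1, 3 and 5 and 2.26 and 2.14 in replicates 2 and 4, so all 5 lay above VAS WT, replicate 2 lay inside the range of VAS *Stra6*-/-, and the levels of both genes overlapped VAS WT. Those labelled VAD *Stra6*-/- had 0.495 to 0.959, below every other library.

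The genes whose pattern over the 20 libraries lay closest to each member were found by the root mean square difference of log2(value + 1), each gene centred on its own mean, among 13520 genes. For *Aqp3* they were *Krt6b* (0.144), *Spint1*, *Elf3*, *Mal* and *Cwh43* (0.190), where *Aqp3* itself had a spread of 1.997 on this measure. For *Aqp5*, with a spread of 2.76, they were *Krt12* (0.167), *Fam83a*, *Col17a1*, *2610528A11Rik* and *Psca* (0.401). *Krt12* and *Col17a1* are also in the marker list above. For *Aqp4* (spread 0.443) they were *Maneal* (0.184), *Mmd2*, *Nova1*, *Uchl1* and *Eno2* (0.213). For *Aqp1* (spread 0.160) the closest was *Agpat3* (0.0801), followed by *Cdk16*, *Flna*, *Gapdh* and *Marveld1* (0.0921). For *Aqp11* the closest, *Eid2b*, differed by 0.316 where *Aqp11* itself had a spread of 0.650, a loose likeness; *Aldh3a2*, *Scara3*, *Mfap5* and *Fkbp1a* (0.346) followed. The libraries of a group share most of this likeness, so it is not an independent measure over 20 points.

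The other 7 mouse water channel genes were at low levels. *Aqp12* was at 0 in all 20 libraries, and 6 passed the filter. None was called in VAS *Stra6*-/- or in VAD WT against VAS WT by limma, edgeR or DESeq2, with 0 and 1 at an unadjusted p under 0.05 in limma, when all groups and libraries were in the fit. limma called 1 in the first comparison with only those groups in the fit, and 1 in the second without VAD WT replicate 1 and 1 with replicates 1, 3 and 5 alone. *Aqp2*, the vasopressin-regulated channel of the kidney collecting duct and the neighbour of *Aqp5*, had 14.6 to 42.0 in VAS WT and 30.9 to 57.1 in VAS *Stra6*-/-. In VAD WT it had 88.4, 63.8 and 53.3 in replicates 1, 3 and 5 and 5.15 and 18.8 in replicates 2 and 4, the same split as *Aqp5*. In the libraries labelled VAD *Stra6*-/- it was at 0 in 4 libraries and at 4 reads in replicate 3, and it was called lower against both groups (adjusted p = 7.44e-07 against VAS *Stra6*-/- and 1.66e-06 against VAD WT) and in the interaction (adjusted p = 2.30e-05). *Mip*, the lens fibre channel, was called lower against VAS *Stra6*-/- (-0.996, adjusted p = 0.0168), and *Aqp7*, a glycerol channel known from fat tissue, against VAD WT (-2.34, adjusted p = 0.00530). The latter rests on at most 16 reads in a library, and edgeR called 1 of the 6 genes in that comparison. Fold changes of such low genes are shrunken by the added 1.

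Water follows ions across epithelia, so 25 genes of ion, acid and lactate transport listed for the RPE were counted in the same fit. In VAS *Stra6*-/- against VAS WT 2 were called higher and 5 lower, where 15.9% and 10.8% of all genes were. *Slc12a2*, the sodium-potassium-chloride cotransporter (0.35 ± 0.05, adjusted p = 5.08e-05), rose. *Slc16a8*, the lactate transporter of the RPE (-0.60 ± 0.08, adjusted p = 5.06e-06), and *Car4*, a carbonic anhydrase of vessel walls (-1.24 ± 0.39, adjusted p = 0.0214), fell. The median over the list was 0.12, against 0.02 over all genes. With only these 2 groups in the fit 18 of the 25 were called.

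In VAD WT against VAS WT 12 of the 25 were called, each of them lower, where 5.5% of all genes were called lower and 3.29% higher. The median of the list was -0.48, against 0.00 over all genes. *Slc16a8* (-1.43 ± 0.08, adjusted p = 7.26e-11) and *Car14*, a carbonic anhydrase of the RPE (-1.25 ± 0.16, adjusted p = 2.60e-05), fell most. With only these 2 groups in the fit 7 were called, and with VAD WT replicates 1, 3 and 5 alone 20 were. Of the 8 RPE markers 7 were called lower in the same comparison; *Best1* stands in both lists.

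Most of the transport list was higher in the libraries labelled VAD *Stra6*-/-. Against VAS *Stra6*-/- 15 were called higher and 5 lower, where 24.4% and 28.8% of all genes were, and the list's median was 0.80 against -0.07 over all genes. *Slc16a1*, a lactate transporter (2.72 ± 0.28, adjusted p = 4.78e-08), and *Kcnj13*, a potassium channel of the RPE (2.28 ± 0.14, adjusted p = 5.62e-12), rose most. Against VAD WT 15 were called higher and 3 lower, where 26.2% and 29.6% of all genes were, with a median of 0.88 against -0.05. *Slc16a1* (3.97 ± 0.28, adjusted p = 1.33e-10) and *Car14* (3.62 ± 0.16, adjusted p = 8.44e-14) rose most and *Car2*, a cytosolic carbonic anhydrase, fell (-0.93 ± 0.13, adjusted p = 3.76e-06). The interaction was called higher for 15 and lower for 2 of the 25, where 19.5% and 24.8% of all genes were, with *Slc16a1* (3.62 ± 0.40, adjusted p = 2.00e-07) and *Slc16a8* (3.42 ± 0.11, adjusted p = 9.35e-16) at the top. The RPE marker sum moved in the same direction in these comparisons, as given above, and its part was not tested.

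**Figure D5:**
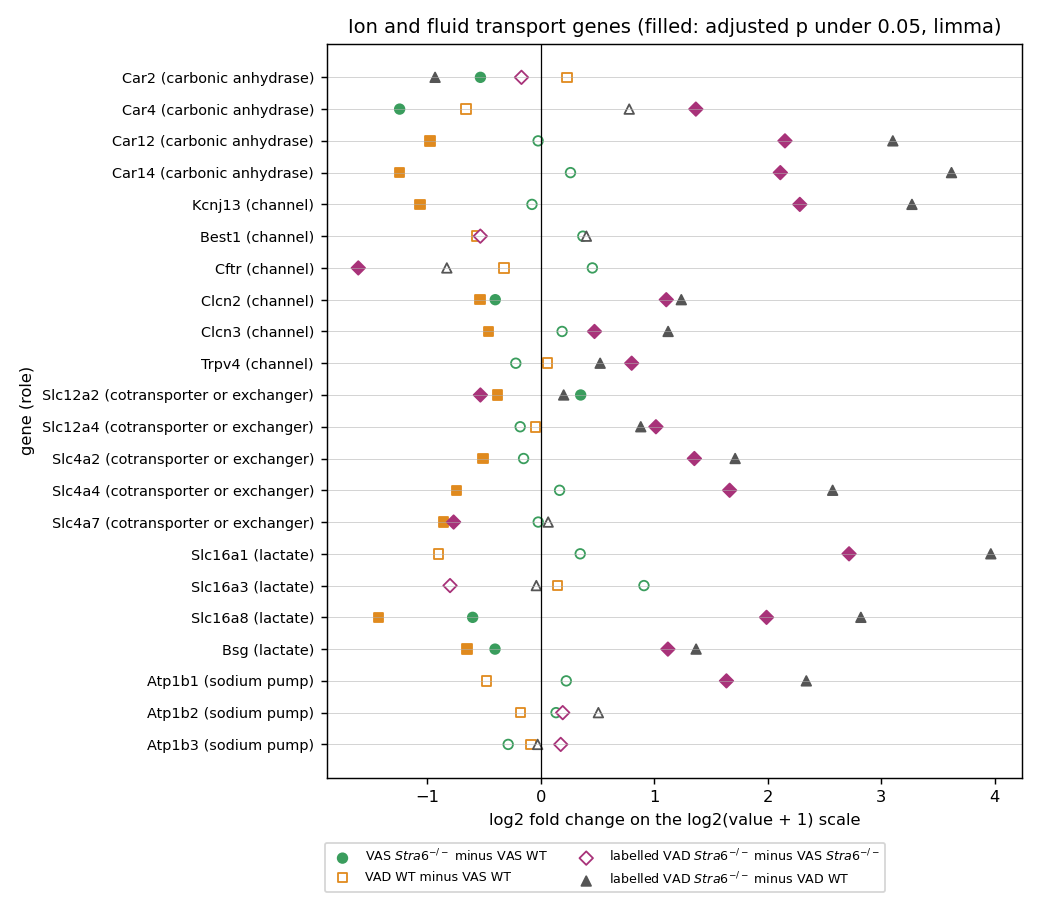
Log2 fold change on the log2(value + 1) scale for 22 of the 25 ion and fluid transport genes, grouped by role, in 4 comparisons of 5 libraries a group (filled: adjusted p under 0.05, limma). The VAD WT squares lie mostly left of 0 (median over the 25 genes -0.48) and the points of the libraries labelled VAD *Stra6*-/- mostly right of it (medians 0.80 and 0.88).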

How the data were processed

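RNA-seq libraries of 20 RPE-choroid samples, 5 in each of 4 groups taken from the labels, were analysed. Per the labels, the authors aligned reads to GRCm38/mm10 with STAR 2.5.3a, counted genes with RSEM 1.2.30 and used DESeq2 1.32.0. The values the authors deposited are a signal: each gene's count over the library's size factor, with no length or log scaling. Every value was a whole multiple of the library's smallest positive value within 0.02 (100% of values), and the steps gave the median-of-ratios size factors. Counts of VAD *Stra6*-/- replicate 1 were not claimed, since its size factor lies near 1, so the tests on counts used 19 libraries with 4 in that group.

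The main test was limma 3.58.1 (R 4.3.3) on log2(value + 1) with 4 group means, an intensity trend and Benjamini-Hochberg adjustment over 18807 genes with a total of at least 5 reads. edgeR 4.0.16 and DESeq2 1.42.0 on recovered counts, other pseudocounts, filters, scalings and fits, and fits without single libraries were alternatives. The limma and edgeR fits were tried on simulated counts for VAS *Stra6*-/- against VAS WT only. DESeq2, the fit of all groups, the interaction and the uneven VAD WT group were not covered by that trial. For pairs of libraries within a group, the chi-square per gene was 3.39 or more, where counting noise alone gives 1, so no pair was counted as 1. A value above 1 does not show that the libraries came from separate mice. In VAD WT it was 7.105 to 11.05 among replicates 1, 3 and 5 and 7.764 for replicates 2 and 4. Between those sets it was 160.6 to 202.1. Labels do not name litters, and p-values measure the spread between these libraries, not between mice known to be separate. Counting intervals are not given.

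The members, the lists and the markers were chosen with earlier results of these data known. Named genes were the members, the other water channels, *Stra6*, *Xist* and *Ddx3y*, marker genes by name, the 5 genes nearest each member with a mean value of at least 50, and the 2 transport genes with the largest called rise and fall per comparison with a mean of at least 50 in a group. Marker lists of rods, endothelium, erythrocytes, lens and gland acini were also summed. The single values of 3 of the transport genes that this rule names are not reported here.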

Additional observations from a re-analysis of the deposited data

Results flagged for a closer look

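The diet difference in the *Stra6*-/- label minus that in WT was called by limma for *Aqp3* (-4.60, adjusted p = 4.53e-12), *Aqp5* (-7.37, adjusted p = 1.08e-11) and *Aqp11* (1.35, adjusted p = 0.0152). Tissue markers and sex-linked transcripts also differed between these groups, as given above, and their part was not tested. In the libraries labelled VAD *Stra6*-/- all 5 values of *Aqp3* and of *Aqp5* lay below, and all 5 of *Aqp11* above, those of VAS *Stra6*-/-.

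Among 20 sets of 5 libraries (5 genes in 4 groups) 1 library stood apart by Dixon's test: VAS WT replicate 4 had 32164 for *Aqp5*, with a gap of 0.80 of the group's range to the next library. Chance flags about 1 in 20 such sets. The surface epithelium sum was also highest in that library of VAS WT, at 751275. Without it the log2 fold change of *Aqp5* in VAS *Stra6*-/- against VAS WT was 1.02.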

How the results depend on the processing

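The alternatives were pseudocounts of 0.5 and 4, no filter and a mean value of at least 10 in a group, TMM scaling, edgeR and DESeq2 on 19 libraries, only the groups compared in the fit, a replicate block, each library left out, VAD WT replicates 1, 3 and 5 alone, and a log2 fold change beyond 2 as well. *Aqp3* and *Aqp5* kept their calls in both comparisons of the libraries labelled VAD *Stra6*-/- and in the interaction under each of these that could be run, and *Aqp11* under all but the last; fits of the groups compared alone have no interaction. Of the member fold changes recomputed, 528 kept direction and call, 12 gained the call, 7 lost it and 13 turned in sign.

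For VAS *Stra6*-/- against VAS WT, 2 members were called, 0 beyond a log2 fold change of 2 and 1 to 2 with a library left out. For VAD WT against VAS WT, 0 were called, but 1 by edgeR, 1 by DESeq2, 0 to 1 with a library left out (1 without VAD WT replicate 2 or 4, where *Aqp5* had 1.04 both times) and 3 with replicates 1, 3 and 5 alone. For the libraries labelled VAD *Stra6*-/-, 3 were called against VAS *Stra6*-/- and 5 with only those groups in the fit; against VAD WT 4 were called and 2 beyond 2. Without VAD WT replicate 4 *Aqp1* was called there too (0.21, adjusted p = 0.0373). Of the 25 transport genes 7, 12, 20, 18 and 17 were called in the 4 comparisons and the interaction, and 0, 0, 4, 7 and 8 beyond 2. With only the groups compared the first of these counts was 18 and the second 7, and with replicates 1, 3 and 5 alone the second was 20.

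Signs turned only where the main value was not called. *Aqp1* in VAS *Stra6*-/- against VAS WT ran from -0.0227 to 0.0180 with a library left out. In VAD WT against VAS WT with a library left out *Aqp1* ran from -0.00598 to 0.14 and *Aqp11* from -0.32 to 0.11. With replicates 1, 3 and 5 alone *Aqp1* was -0.13 and *Aqp3* 0.12 there. The interaction of *Aqp4* ran from -0.21 to 0.0563 with a library left out and was 0.22 with those replicates. Apart from the fits on fewer samples, the cause was not tested.

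Over all genes, 5010 were called in VAS *Stra6*-/- against VAS WT, 8208 with only those groups and 207 beyond 2; 1652 in VAD WT against VAS WT, 639 with only those groups, 2651 without VAD WT replicate 4, 7124 with replicates 1, 3 and 5 and 77 beyond 2. In the last 2 comparisons and the interaction 10004, 10504 and 8319 were called, and 1707, 1952 and 1960 beyond 2. In VAD WT against VAS WT 37.4% of called genes were higher by limma and 49.7% by DESeq2. TMM scaling moved the median of all genes by at most 0.03.

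Replicate numbers did not pair the libraries: deviations of same-numbered libraries correlated over 0.1 in 1 of 30 pairs (from -0.20 to 0.15), and a library correlated best with its own number in 10 of 60 cases. The replicate block left 2, 0, 3, 4 and 3 members called and changed no member's call; it left 7, 11, 19, 18 and 17 transport genes called. Depth limits *Aqp11*, with 23 reads in its lowest library, and the other low water channels most.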
